A study of Rattus norvegicus with 9 samples.

Results

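Pcdh19, a protocadherin gene linked to inherited epilepsy, was followed across the mRNA libraries of dorsal hippocampus from 9 male Wistar rats. It was read from the row of transcript ENSRNOT00000042335, which the study pairs with this gene, and it is 1 of 31786 transcripts in the table. The study had named it as 1 of 15 epilepsy-related genes because its counts differed between epileptic and control rats in these same libraries. The levels below are therefore a description, and the difference between those groups is given without a test. CTRL rats (n = 3) received methyl scopolamine (1 mg/kg) and saline and ate a standard diet. PILO rats (n = 3) received methyl scopolamine and then pilocarpine at 340 mg/kg, a muscarinic agonist that sets off status epilepticus, with a standard diet. PILO+KD rats (n = 3) received the same drugs and were fed a ketogenic diet, which is rich in fat and poor in carbohydrate. After 60 min of status epilepticus, 8 mg/kg of diazepam was injected to stop it, and the rats were then watched over 84 days. Rats that did not respond to the first pilocarpine injection were given another, smaller dose, and the labels do not say which rats these were. The study held no control rats on the ketogenic diet, so the diet was measured only in pilocarpine-treated animals.

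Protocadherins are calcium-dependent adhesion molecules of the cadherin superfamily. The product of Pcdh19 belongs to the non-clustered delta-protocadherins, whose extracellular cadherin repeats bind the same molecule on a neighbouring cell, and it can act together with N-cadherin. Its intracellular part has been connected with actin regulation and with the handling of GABA-A receptors at the neuronal surface. The gene lies on the X chromosome, and loss-of-function changes of the human gene cause an epilepsy with clustered seizures that begins early in life, mainly in females.

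Each library came from 1 animal, and total counts ranged from 9904067 to 24092617. PILO replicate 3 stood apart: its 10 most abundant transcripts held 26.04% of all counts, against 12.1% to 19.3% in the other libraries, and its normalisation factor (trimmed mean of M-values, TMM) was 0.831, against 0.969 to 1.07 in the others. The shallowest library, PILO+KD replicate 3, was the only one from flow cell FC095, while the other 8 came from FC094. The main comparisons of Pcdh19 are given with and without either library that enters them. Because the file holds no gene symbols, the labelled tissue could not be checked against neuronal markers, and of the planned cell type markers only Gfap, the astrocyte filament, could be read.

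Pcdh19 was highest in CTRL, lower in PILO+KD and lowest in PILO, and no library of any group reached the range of another. The CTRL libraries held 370, 354 and 455 reads of Pcdh19, which correspond to 17.9, 23.7 and 19.4 CPM (counts scaled to the TMM-adjusted library total, the normalised read count used throughout) in replicates 1 to 3. The PILO libraries held 176, 242 and 103 reads, or 9.72, 9.79 and 6.02 CPM. The PILO+KD libraries held 352, 333 and 153 reads, or 15.1, 16.6 and 14.4 CPM. PILO replicate 3 was thus the lowest of all 9 libraries, and CTRL replicate 2 was the highest. The library from the other flow cell was the lowest of its group, 0.719 CPM below the next PILO+KD library.

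**Figure D1:**
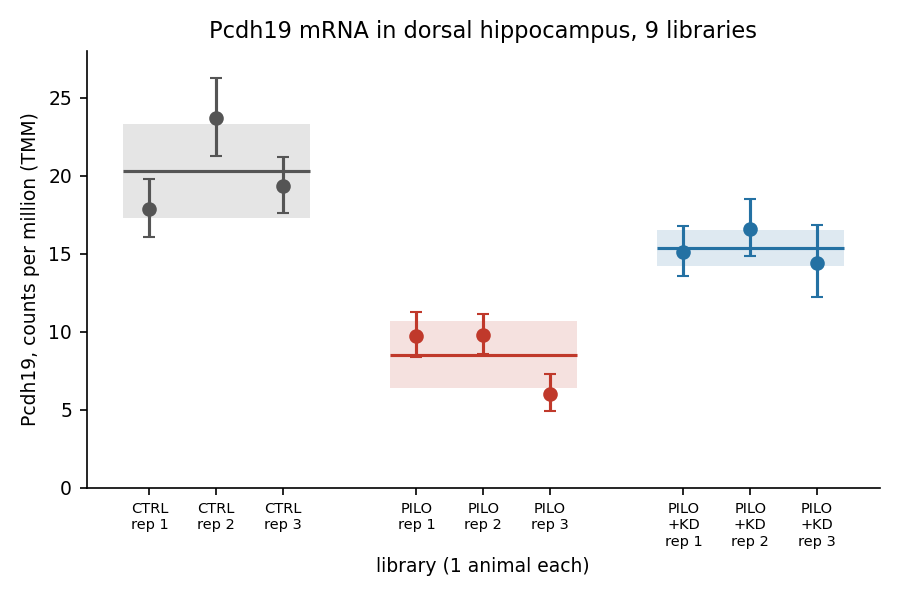
Pcdh19 level in each library (points, TMM-normalised CPM, vertical axis) with exact Poisson 95% intervals of the read count (bars), and the group mean (line) ± SD (shaded, n = 3). The CTRL libraries lie between 17.9 and 23.7, the PILO+KD libraries between 14.4 and 16.6 and the PILO libraries between 6.02 and 9.79, with the closest approach between PILO+KD replicate 2 and CTRL replicate 1.

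The group means were 20.3 ± 3.02 CPM in CTRL, 8.51 ± 2.16 CPM in PILO and 15.4 ± 1.13 CPM in PILO+KD (SD, n = 3 each). The coefficient of variation was 14.9% in CTRL, where counting alone gives 5.07%, and 25.3% in PILO, where counting alone gives 8.07%. In PILO+KD it was 7.34%, close to the 6.42% given by counting. Set against sampling noise, which gives a chi-square per degree of freedom near 1, the spread of the reads gave 7.69 in CTRL, 9.83 in PILO and 1.32 in PILO+KD. The PILO spread came from replicate 3, and PILO replicates 1 and 2 differed by less than counting error. The spreads of the groups were not tested against each other. For the fit over all libraries the biological coefficient of variation of Pcdh19 was 0.196, below the common value of 0.241.

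The gap between CTRL and PILO+KD was the narrowest. When the libraries were put in order of their level, the exact Poisson 95% intervals of PILO+KD replicate 2 (14.9 to 18.5 CPM) and CTRL replicate 1 (16.1 to 19.8 CPM) overlapped, so these neighbours could not be told apart at this depth. The intervals of the neighbours PILO replicate 2 (8.59 to 11.1 CPM) and PILO+KD replicate 3 (12.2 to 16.8 CPM) did not overlap. Among the PILO libraries, replicate 3 (4.91 to 7.30 CPM) lay below replicate 1 (8.34 to 11.3 CPM) by more than counting error, while replicates 1 and 2 had overlapping intervals. In CTRL the interval of replicate 2 (21.3 to 26.3 CPM) began just above the end of that of replicate 3 (17.6 to 21.2 CPM). These intervals cover counting error only.

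PILO was set against CTRL to compare chronically epileptic rats with healthy ones under the same standard diet. Pcdh19 stood at 41.9% of the CTRL mean, and the lowest CTRL library exceeded the highest PILO library 1.83-fold. The fitted log2 fold change was -1.25 (SE 0.22, 95% interval -1.73 to -0.76). This difference had chosen the gene and is given with no test. Among all 22283 transcripts fitted, 14.2% were lower in PILO without overlap, and nothing is read from the place of Pcdh19 in that share. Of the 19515 transcripts with a mean of at least 20 counts, 98 (0.502%) had a log2 fold change as low or lower. The choice of the gene on this difference puts it near that end, so nothing is read from this rank either. Without PILO replicate 3 the log2 fold change was -1.06 (SE 0.19, 95% interval -1.46 to -0.65) and the PILO mean was 9.98 CPM. The fall was thus smaller without the library that stands apart. In bulk tissue, fewer cells that express a gene and less of its RNA per cell cannot be told apart.

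PILO+KD was set against CTRL to ask how far epileptic animals on the ketogenic diet remained from controls. The PILO+KD mean was 75.7% of the CTRL mean. All 3 PILO+KD libraries were below all 3 CTRL libraries, as were those of 5.17% of all transcripts, but the lowest CTRL library was only 1.08-fold above the highest PILO+KD library. The log2 fold change was -0.40 (SE 0.22, 95% interval -0.88 to 0.08), with an adjusted p of 0.9999 in the edgeR quasi-likelihood test over all transcripts, so that Pcdh19 did not pass. The interval allows anything from a fall to 0.545 of the CTRL level to a level 1.05 times as high. A log2 fold change as low or lower was found in 957 of the 19515 transcripts with at least 20 counts on average (4.9%). Within flow cell FC094, that is without PILO+KD replicate 3, the log2 fold change was -0.36 (SE 0.26). Without PILO replicate 3 the log2 fold change was also -0.40 but its SE was 0.16 and its interval -0.75 to -0.05, with an adjusted p of 0.803. Neither group compared held that library, and the estimate of spread was shared by all 3 groups.

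PILO+KD was set against PILO to compare the diets within pilocarpine-treated rats. The study reports fewer seizures per week in the rats on the ketogenic diet, so diet and seizure burden cannot be told apart here. The PILO+KD mean was 1.80 times the PILO mean, and the lowest PILO+KD library exceeded the highest PILO library 1.47-fold. A higher level without overlap was found in 5.65% of all transcripts. The log2 fold change was 0.85 (SE 0.22, 95% interval 0.36 to 1.33), and the adjusted p was 0.624 in the edgeR quasi-likelihood test, so that Pcdh19 did not pass over all transcripts. Of the 19515 transcripts with at least 20 counts on average, 224 (1.15%) had a log2 fold change as high or higher. Without PILO replicate 3 the log2 fold change was 0.66 (SE 0.19, 95% interval 0.26 to 1.06), and within flow cell FC094 it was 0.89 (SE 0.25). In these settings the adjusted p of the quasi-likelihood test was 0.99999 and 0.725.

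Both comparisons with PILO+KD share libraries with the one that chose the gene. A gene picked for high CTRL and low PILO values starts with CTRL values that lean high and PILO values that lean low, which bears on the distance of PILO+KD from each. In PILO+KD vs CTRL 0% of the 22283 transcripts had an adjusted p under 0.05 in the edgeR quasi-likelihood test, while 803 had an unadjusted p under 0.05, and DESeq2 called 28, the edgeR exact test 37 and limma 8. In PILO+KD vs PILO the share was also 0%, with 1602 at an unadjusted p under 0.05, and DESeq2 called 22, the edgeR exact test 27 and limma 0. The 803 are fewer, and the 1602 more, than a share of 0.05 of the 22283 transcripts would be. Pcdh19 was called by none of these tools in either comparison.

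**Figure D2:**
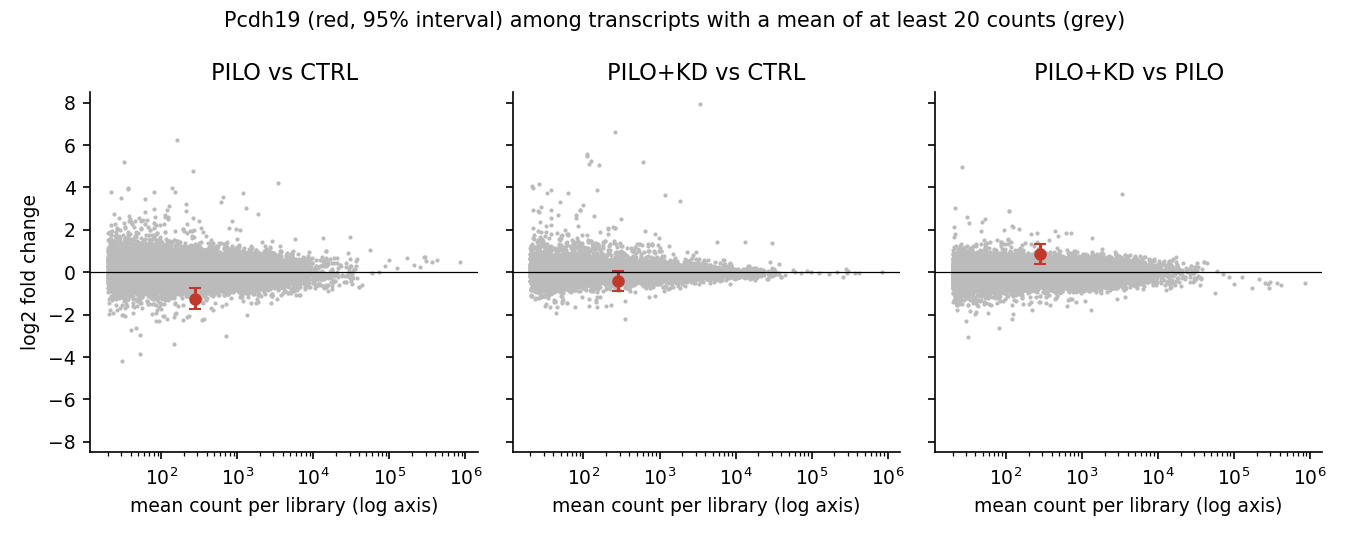
Log2 fold change (vertical axis) against the mean count per library (horizontal axis, log scale) of the 19515 transcripts with a mean of at least 20 counts (grey), with Pcdh19 and its 95% interval in red, in the 3 comparisons. Pcdh19 lies at -1.25 in PILO vs CTRL, at -0.40 in PILO+KD vs CTRL, where its interval crosses 0, and at 0.85 in PILO+KD vs PILO.

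Each library was also placed on a scale of log2 CPM with 0 at the mean of CTRL and 1 at that of PILO. The PILO+KD libraries lay at 0.327, 0.220 and 0.382 in replicates 1 to 3 (mean 0.310 ± 0.0821, SD, n = 3). All were closer to the CTRL mean than to the PILO mean. The CTRL libraries lay at 0.136, -0.182 and 0.0460, and the PILO libraries at 0.823, 0.816 and 1.36. The PILO end of the scale therefore leaned on PILO replicate 3, and without it the PILO+KD mean moved to 0.378. Without PILO+KD replicate 3 the mean was 0.273. The order CTRL above PILO+KD above PILO, with no overlap between any groups, was shared by 134 of the 22283 transcripts (0.601%), and the reverse order was found in 107 (0.48%). The 134 are among the 3154 transcripts that were lower in PILO than in CTRL without overlap. Pcdh19 was chosen for that part of the order, so nothing is read from how rare the order is. Of the other 24 genes the study names, 1 had the order of Pcdh19 (Ncoa1) and 2 had the reverse order (Npc2 and Apobec1). These 24 genes were picked on the same libraries, so their share is no evidence apart from that choice.

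The genes most like Pcdh19 were sought by Pearson's r of log2 CPM over the 9 libraries, which share the group differences and PILO replicate 3. Of the 24 other genes named by the study, 16 had a positive r, from 0.496 to 0.959, and 8 a negative r, from -0.924 to -0.606. The positive ones were the 16 that were lower in PILO than in CTRL without overlap, and the negative ones the 8 that were higher without overlap, a call that 13.2% of all transcripts shared. The study had chosen the 24 genes for a difference between CTRL and PILO, and this choice fixes the sign of r and bears on its size, so nothing is read from how high these values are beside those of other transcripts. Over 19490 further transcripts with a mean of at least 20 counts the median r was 0.03.

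Ordered by role, the 6 genes of voltage-gated channels and their subunits had an r from 0.853 to 0.959, with a median of 0.913. Of the genes of calcium release and uptake, the r was 0.925 for Itpr1, the receptor through which IP3 releases stored calcium, and 0.892 for Atp2a2, the calcium pump of the endoplasmic reticulum. Of the receptors, Gpr56, an adhesion G-protein-coupled receptor, had an r of 0.887, and Gabrd, the delta subunit of the GABA-A receptor, had 0.496. The value of Gabrd rested on PILO+KD replicate 1, and without it the r of Gabrd was 0.960. The r of the 10 epigenetic regulators ranged from -0.924 to 0.942 with a median of 0.848. It was positive for the 6 that were lower in PILO (Ncoa1, Zmynd8, Ezh1, Eif2c1, Mll1 and Nrip1, from 0.845 to 0.942) and negative for the 4 that were higher.

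Kcna1, a Shaker-type potassium channel of axons, had the highest r with Pcdh19, 0.959. Its levels were 21.7, 26.1 and 28.03 CPM in CTRL, 15.2, 13.1 and 6.43 CPM in PILO and 20.03, 23.6 and 17.4 CPM in PILO+KD. PILO replicate 3 was again the lowest library and PILO+KD replicate 2 the highest of its group, but the CTRL and PILO+KD libraries of Kcna1 overlapped. Scn4b, a beta subunit of voltage-gated sodium channels, had an r of 0.945. Its levels were 25.7, 33.05 and 34.3 CPM in CTRL, 10.00, 5.66 and 4.56 CPM in PILO and 16.5, 29.1 and 13.0 CPM in PILO+KD. The PILO+KD libraries of Scn4b were spread far more widely than those of Pcdh19, with replicate 2 inside the CTRL range. Ncoa1, a nuclear receptor coactivator with histone acetyltransferase activity, had an r of 0.942. It stood at 87.8, 94.1 and 98.3 CPM in CTRL, 57.7, 60.4 and 26.5 CPM in PILO and 68.04, 84.05 and 65.8 CPM in PILO+KD, and its groups did not overlap. Within groups, after the group means were taken away, r with Pcdh19 was 0.905 for Kcna1, 0.639 for Scn4b and 0.904 for Ncoa1. Without PILO replicate 3 these within-group values fell to 0.581, 0.510 and 0.536, while the r over 8 libraries, group differences included, was 0.935, 0.927 and 0.923. Without PILO+KD replicate 3 the r was 0.961 for Kcna1, 0.953 for Scn4b and 0.944 for Ncoa1, and Itpr1 (0.955) took the place of Ncoa1 among the 3 highest.

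Over all 9 libraries the 3 lowest r belonged to Apobec1, Npc2 and Ndufa2. Apobec1, a cytidine deaminase, had an r of -0.924. Its levels were 1.93, 2.68 and 2.17 CPM in CTRL, 4.31, 4.53 and 7.37 CPM in PILO and 3.39, 2.89 and 3.196 CPM in PILO+KD, and PILO replicate 3 was the highest library. Npc2, a lysosomal cholesterol transfer protein, had an r of -0.910. Its levels were 91.8, 76.9 and 86.8 CPM in CTRL, 164, 211 and 206 CPM in PILO and 138, 119 and 152 CPM in PILO+KD. CTRL replicate 2, the highest in Pcdh19, was the lowest in Npc2, and PILO+KD replicate 2 was the highest of its group in Pcdh19 and the lowest in Npc2. Ndufa2, a subunit of mitochondrial complex I, had an r of -0.883, with 75.1, 64.2 and 45.04 CPM in CTRL, 93.6, 87.8 and 156 CPM in PILO and 65.7, 71.5 and 79.7 CPM in PILO+KD. Its CTRL and PILO+KD libraries overlapped. Within groups the r was -0.563 for Apobec1, -0.576 for Npc2 and -0.681 for Ndufa2. Without PILO replicate 3 these within-group values were 0.647, -0.677 and -0.115, so that of Apobec1 changed sign. With group differences included, the r without PILO replicate 3 was -0.840 for Apobec1, -0.940 for Npc2 and -0.745 for Ndufa2. Gfap (-0.847) then lay below Apobec1, and Gadd45a (-0.837) below Ndufa2, so Ndufa2 was no longer among the lowest 3.

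**Figure D3:**
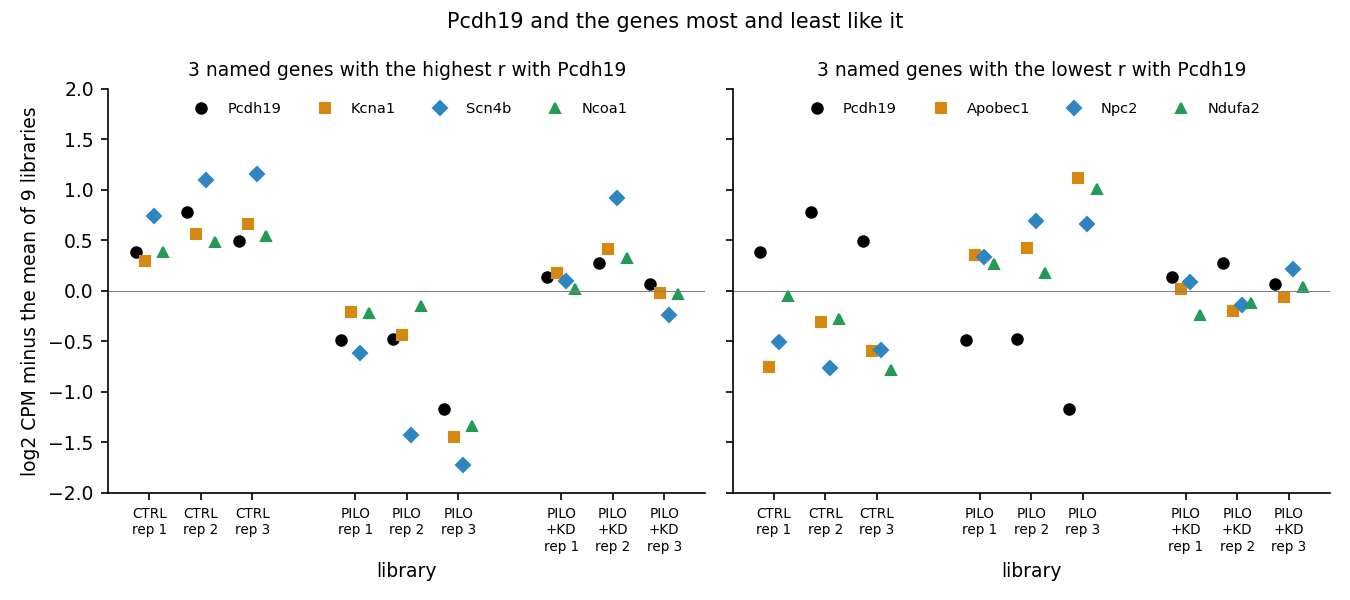
Log2 CPM of each gene minus its mean over the 9 libraries (vertical axis) in each library, for Pcdh19 (black) and the 3 named genes with the highest r (left) and the lowest r (right). Pcdh19 lies between 0.38 and 0.78 in CTRL, between -1.17 and -0.48 in PILO and between 0.07 and 0.27 in PILO+KD, and PILO replicate 3 is the lowest library of each gene on the left.

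Among transcripts without a symbol, 18 of 19490 had a higher r with Pcdh19 than Kcna1. The highest were ENSRNOT00000007656, with an r of 0.978 and levels of 73.5 ± 6.26, 41.2 ± 8.53 and 62.05 ± 5.09 CPM in CTRL, PILO and PILO+KD (SD, n = 3 each), and ENSRNOT00000064372, with an r of 0.977. The lowest were ENSRNOT00000015702 (r -0.991) and ENSRNOT00000030931 (r -0.990). The latter stood at 55.3 ± 3.89, 75.9 ± 9.01 and 61.2 ± 1.81 CPM in the same order of groups. Such extremes were picked from all 19490 transcripts and describe these 9 libraries only.

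Gfap, the marker of astrocytes and their reaction to injury, was measured beside Pcdh19. Its mean was 667 ± 127 CPM in CTRL, 2134 ± 664 CPM in PILO and 1751 ± 900 CPM in PILO+KD (SD, n = 3 each), and its r with Pcdh19 was -0.660. Within groups the r was 0.05. Without PILO replicate 3 the r over 8 libraries was -0.847, and within groups it was -0.554. The log2 fold change of Gfap in PILO+KD was 1.39 (SE 0.36) against CTRL and -0.29 (SE 0.36) against PILO. That of Pcdh19 against PILO was 0.85 (SE 0.22). The part that glial RNA has in the level of Pcdh19 was not tested. Over the 9 libraries the log2 CPM of Pcdh19 had an r of -0.656 with the share of counts in the 10 most abundant transcripts, of 0.603 with the TMM factor, of -0.207 with the total count and of -0.206 with the number of transcripts detected. Over the 8 libraries other than PILO replicate 3 these were -0.155, -0.130, -0.181 and -0.592. The first 2 relations were thus weaker without that library, and the relation to the number of transcripts detected was stronger. The part of library make-up in the result was not tested.

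**Figure D4:**
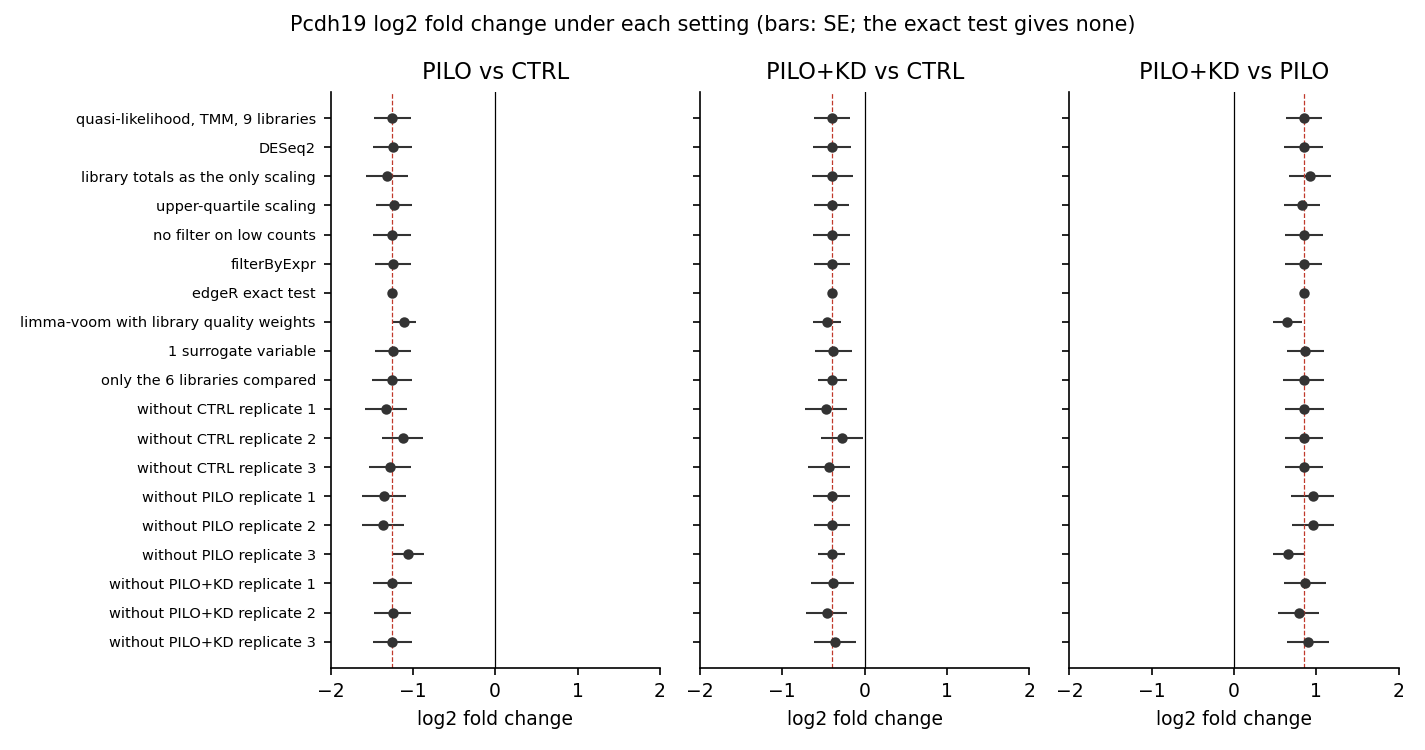
Log2 fold change of Pcdh19 (horizontal axis, points, with SE as bars except for the exact test, which gives none) under each setting (rows) in the 3 comparisons. The dashed line marks the value of the quasi-likelihood fit of 9 libraries. Values lie between -1.36 and -1.06 in PILO vs CTRL, between -0.47 and -0.28 in PILO+KD vs CTRL and between 0.65 and 0.96 in PILO+KD vs PILO.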

How the data were processed

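Poly-A RNA was sequenced as single reads of 36 bp. The authors mapped them to rat RN4 (BWA 0.5.9) and summed the tags of each transcript in Ensembl 66 with their own script. The deposited values are raw counts. How shared reads and strand were treated is not given in the sources used here. Of the identifiers, 0 matched the rat RefSeq table (GRCr8), so symbols are those the study pairs with 25 transcripts and no coordinates or sequences are given. No other transcript had the counts of Pcdh19 in every library.

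Transcripts with a total of at least 55 counts (the 30th centile) were kept, 22283 of 31786 (70.1%). All 9 libraries entered 1 fit in edgeR 4.0.16 (R 4.3.3) with TMM normalisation and the two-sided robust quasi-likelihood F-test, with Benjamini-Hochberg adjustment over all transcripts and a threshold of 0.05. The SE of a log2 fold change was derived from its F statistic (the change over the root of F). A prior count of 2 was used for log2 CPM. DESeq2 1.42.0, limma 3.58.1 with library quality weights, sva 3.50.0, other scalings and filters, and leaving out each library were alternatives. Tests were tried on simulated data first. Named genes were the 3 with the highest and the 3 with the lowest r of the study's 24 others, and the 2 identifiers at each end with a mean of at least 20 counts. Role groups name further members. Genes and lists were chosen with earlier results of these data known. Replicate numbers follow the order of deposition.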

Additional observations from a re-analysis of the deposited data

How the results depend on the processing

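The direction of Pcdh19 was kept in all 18 alternatives of each comparison. As no groups overlapped, leaving out a library could hardly reverse it, and the other alternatives used the same counts. The kept direction is therefore no separate evidence. The log2 fold change ranged from -1.36 to -1.06 in PILO vs CTRL, from -0.47 to -0.28 in PILO+KD vs CTRL and from 0.65 to 0.96 in PILO+KD vs PILO, and the adjusted p ranged from 0.417 to 1 and from 0.169 to 0.99999 in the latter comparisons, without passing 0.05. The place of PILO+KD between CTRL and PILO was 0.240 to 0.378. Of the 3 genes most like Pcdh19, 1 to 3 remained when libraries were left out in turn. The lowest number came without PILO+KD replicate 1, where Gabrd (0.960), Kcna1 (0.959) and Ezh1 (0.947) had the highest r, and the cause was not tested. By Spearman's rho Ncoa1 came first (0.983) and Kcna1, Scn4b and Itpr1 tied at 0.95, so all 3 were kept, and deviations from the group means kept 2 (Kcna1 and Ncoa1, with Kcna2 added at 0.944). The number of transcripts in the order of Pcdh19, 134 in all libraries, rose when fewer libraries had to be separated, an alternative chosen after seeing the data: to 287, 228 and 158 without CTRL replicates 1, 2 and 3, to 230, 254 and 149 without PILO replicates 1, 2 and 3, and to 348, 290 and 261 without PILO+KD replicates 1, 2 and 3. The within-group r and the r with library make-up given without PILO replicate 3 were also chosen after seeing the data. No paired analysis was possible because the labels carry no replicate numbers. With 103 to 455 reads of Pcdh19 per library, counting error limited single values to a 95% interval such as 4.91 to 7.30 CPM in PILO replicate 3.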
